A study of Mus musculus with 6 samples.

Results

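The respiratory chain subunits described here are nuclear genes for the 5 enzyme complexes of oxidative phosphorylation in the mitochondrial inner membrane. They were taken by name, as all genes whose symbol is Nduf with a, b, c, s or v and a digit, Ndufab1, Sdha to Sdhd, or begins with Uqcr, Cox4 to Cox8 or Atp5. Of 24346 gene names, 85 matched, and 83 of these averaged at least 1 FPKM (fragments scaled by transcript length and library total) and were tested among 13180 genes. The libraries hold messenger RNA of the calvaria, the skull roof, from newborn mice. The 3 controls carried floxed alleles of the parathyroid hormone receptor gene Pth1r (Pth1rfl/fl). The other 3 libraries, called labelled mutants 1 to 3 below, carried these alleles and the transgene Prx1-Cre (Prx1-Cre;Pth1rfl/fl). Prx1-Cre is known to act in mesenchyme of limbs and skull, so other lineages in the dissected tissue, such as muscle fibres and osteoclasts, are not its main targets. The sources used here do not say whether a library holds 1 animal or several, and p-values measure the spread between these libraries.

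Complex I takes electrons from NADH and complex II from succinate. Complex III passes them to cytochrome c, and complex IV, cytochrome c oxidase, hands them to oxygen. Complexes I, III and IV pump protons, and complex V, the ATP synthase, uses the gradient to make ATP. Skeletal muscle is rich in these enzymes and replaces a few cytochrome c oxidase subunits by isoforms of its own. Osteoclasts, which resorb bone, are known to hold many mitochondria. Subunits encoded by mitochondrial DNA were not analysed here.

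Pth1r, the targeted gene, measured 89.2, 93.3 and 102 FPKM in controls 1 to 3, against 127, 125 and 142 in labelled mutants 1 to 3. It was thus not lower in the labelled mutants, and the difference did not pass (limma, Benjamini-Hochberg adjusted p = 0.0650), so every direction given here rests on the sample labels. The tissue label was matched by abundant bone matrix transcripts, with Col1a1, a chain of type I collagen, between 9427 and 13131 FPKM. Skeletal muscle was present too. Its 12 markers summed to 24706, 15062 and 17444 FPKM in controls 1 to 3, against 16589, 22058 and 13019.7 in labelled mutants 1 to 3. Control 1 and labelled mutant 2 held the most in their groups and the most of all 6. In tissue of mixed cells, fewer cells of a type and less RNA per cell cannot be told apart.

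None of the 83 tested respiratory chain genes rose or fell in the labelled mutants (limma, Benjamini-Hochberg adjusted p under 0.05). Of the whole test, 0.524% of genes rose, 0.0835% fell and 0.607% did either. At an unadjusted p under 0.05 there was 1 member, against 10.5% of all tested genes. Most members were instead highest in control 1 and labelled mutant 2, the libraries with the most muscle RNA and also the highest sums of neural markers. Among the members that departed from that order, Cox6a1 and Cox8a were lowest in control 1. They are general counterparts of muscle isoforms of cytochrome c oxidase, but Cox7a2, another such counterpart, kept the order.

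The levels differed widely between genes and between complexes. By mean FPKM over the 6 libraries, a scale already divided by transcript length, the median member stood at 101 in complex I, 94.96 in complex II, 224 in complex III, 179 in complex IV and 306 in complex V. The median over all tested genes was 10.3. Together the members took from 2.68% to 2.99% of a library's FPKM. The highest mean was that of Atp5b, the catalytic beta subunit of ATP synthase, at 612 FPKM. Atp5k, a small membrane subunit of that enzyme, followed at 563 FPKM, then Cox4i1, a cytochrome c oxidase subunit, at 553 FPKM. At the low end of complex V, Atp5s had a mean of 3.99 FPKM, and Atp5sl, which GENCODE lists as Dmac2, 16.9 FPKM. Both match the name pattern but are not counted as subunits of the synthase. Cox7b2 and Cox8c, isoforms known from testis, were listed at 0 in all 6 libraries and were the 2 members left untested.

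**Figure D1:**
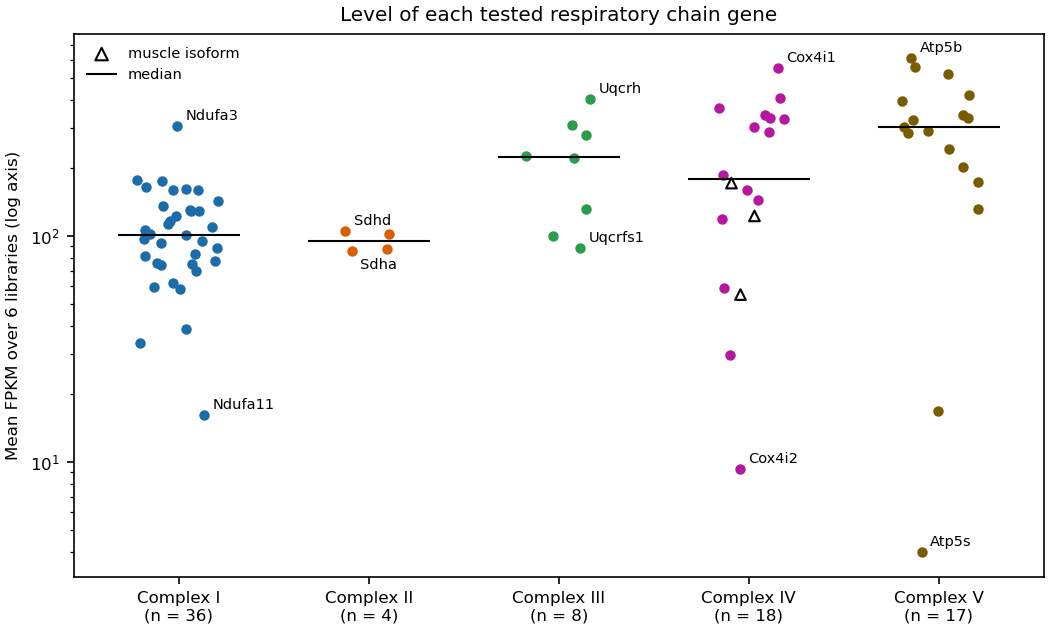
Mean FPKM over the 6 libraries (log axis) of each of the 83 tested members, by complex, with black lines for the medians and open triangles for the muscle isoforms. The medians run from 94.96 FPKM in complex II to 306 FPKM in complex V, and complex IV spreads from 9.30 FPKM for Cox4i2 to 553 FPKM for Cox4i1.

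Complex I has 36 genes here, all tested. Its 7 catalytic core subunits, among them the carriers of the flavin and the iron-sulfur clusters, had a median level of 77.3 FPKM. The 29 accessory subunits ran from 16.1 FPKM for Ndufa11 to 308 FPKM for Ndufa3. Summed over the complex, controls 1 to 3 held 4168, 3667 and 3808 FPKM, against 3859, 4329 and 3734 in labelled mutants 1 to 3. These sums overlapped, and their means had a ratio of 1.02. The members' median log2 difference was 0.038, beside 0.0015 over all tested genes. A higher mean log2(FPKM + 1) was seen for 27 of 36 and a lower one for 9.

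Ndufab1, the acyl carrier protein of mitochondria and a subunit of the complex, had the smallest p of complex I. Its controls stood at 74.6, 64.1 and 61.0 FPKM and its labelled mutants at 59.3, 62.0 and 51.4. Labelled mutant 2 lay above control 3, so the groups overlapped. The log2 difference was -0.21 ± 0.10 (SE), with limma's Benjamini-Hochberg adjusted p = 0.561. Ndufb6 and Ndufs6, accessory subunits, came next with ratios of means of 1.09 and 1.08 (limma, adjusted p = 0.699 and 0.709). The most abundant subunits, Ndufa3, Ndufb7 and Ndufb9, gave ratios of 1.11, 1.03 and 0.995.

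Ndufs5, another accessory subunit, was picked out once its values were known. Its controls stood at 83.1, 74.0 and 49.7 FPKM and its labelled mutants at 52.5, 86.4 and 76.6. Control 3 and labelled mutant 1 were low and the other 4 libraries high, so both groups held low and high values. Its coefficient of variation, averaged over the groups, was 24.7%, against a median of 8.85% over the 83 members.

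In complex II, succinate dehydrogenase, the 4 genes lay close together, with means from 86.2 to 105 FPKM. Sdha, the flavoprotein, measured 92.0, 83.6 and 81.1 FPKM in controls, against 89.7, 94.6 and 76.2 in labelled mutants. Sdhb, the iron-sulfur protein, measured 105, 95.4 and 98.9 FPKM in controls, against 105, 112 and 96.0 in labelled mutants. In both genes the groups overlapped, and control 1 and labelled mutant 2 were the highest of their groups. The membrane anchors Sdhc and Sdhd gave ratios of 0.985 and 1.06. The smallest adjusted p of the 4 was 0.815 in limma, and the 95% intervals of their log2 differences lay between -0.20 and 0.26.

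Complex III was measured through 8 genes, from Uqcrfs1, the Rieske iron-sulfur protein, at 88.5 FPKM to Uqcrh, the hinge protein that meets cytochrome c1, at 403 FPKM. Uqcrh measured 414, 372 and 379 FPKM in controls, against 399, 442 and 412 in labelled mutants. All 3 labelled mutants lay above controls 2 and 3, while control 1 lay above labelled mutants 1 and 3. The log2 difference was 0.10 ± 0.071 (SE) and did not pass (limma, Benjamini-Hochberg adjusted p = 0.696). Uqcrb, a small subunit, and Uqcrc2, a core protein, gave ratios of 1.10 and 1.07, and the abundant small subunits Uqcr11 and Uqcr10 gave 1.01 and 1.00. Summed over these 8 genes, controls held 1857, 1607 and 1702 FPKM and labelled mutants 1751, 1921 and 1717. Cyc1, cytochrome c1 of this complex, lies outside the name rule and is not in these sums. It was read with the electron carriers and gave a ratio of 0.991.

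Complex V has 17 genes here, 15 of them subunits. The head of the synthase was represented by Atp5a1 (alpha) at 333 FPKM, Atp5b (beta) at 612 FPKM and Atp5c1 (gamma) at 174 FPKM. Atp5b measured 671, 567 and 604 FPKM in controls, against 610.1, 679.6 and 538 in labelled mutants. The highest value and the lowest were both labelled mutants, and the means were 614 ± 52.8 and 609 ± 70.6 FPKM (SD, n = 3 each). The small membrane subunits Atp5l and Atp5k gave ratios of 1.12 and 0.927, neither past the threshold (limma, adjusted p = 0.675 and 0.821). Atp5e, the epsilon subunit, gave 1.00, and Atp5s, at its low level, 0.884. Summed over the complex, controls held 5617, 4711 and 4981 FPKM and labelled mutants 5204, 5629 and 4914.

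The rotor ring of the synthase is built from a peptide that Atp5g1, Atp5g2 and Atp5g3 all encode, with different import sequences. Atp5g2 had the smallest p of complex V. Its controls stood at 358, 303 and 313 FPKM and its labelled mutants at 363, 371 and 356. The labelled mutants lay close together, and control 1 lay just above the lowest of them. The log2 difference was 0.17 ± 0.076 (SE), with limma's Benjamini-Hochberg adjusted p = 0.525. As a share of the 3 genes, Atp5g2 held 35.5%, 36.1% and 35.3% in controls, against 37.4%, 35.9% and 39.1% in labelled mutants. Atp5g3 held 42.9%, 42.5% and 42.7% in controls, against 42.0%, 41.8% and 39.7% in labelled mutants. The shares of Atp5g3 did not overlap between the groups, those of Atp5g2 did, and neither was tested.

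**Figure D2:**
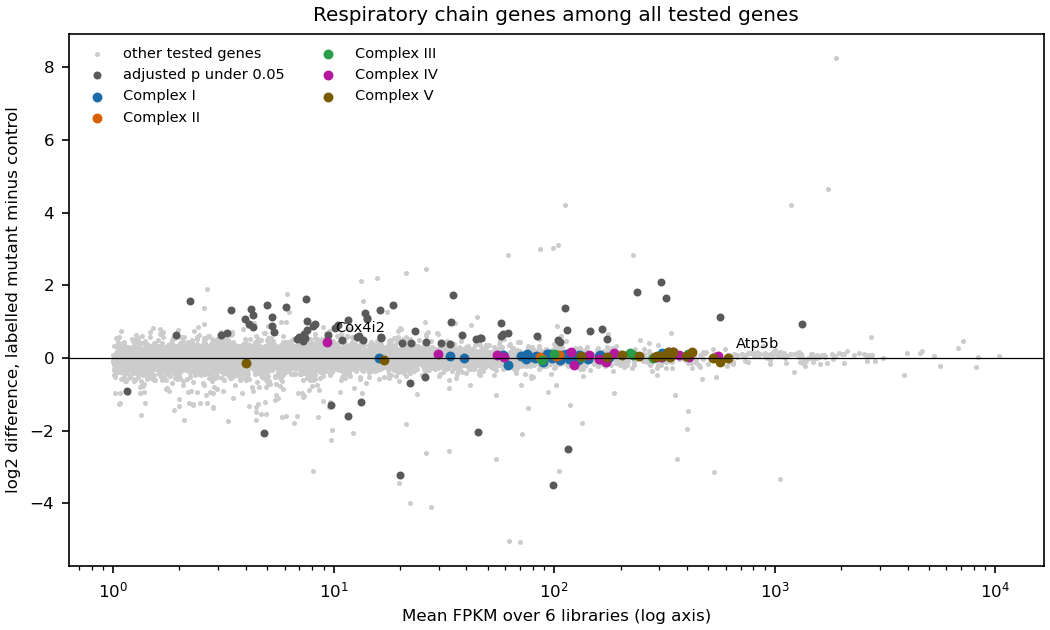
Log2 difference on the log2(FPKM + 1) scale, labelled mutants minus controls, against mean FPKM (log axis) for the 13180 tested genes, with members coloured by complex and genes past an adjusted p of 0.05 in dark grey. The 83 members lie between -0.21 and 0.44, and none is among the 80 genes that passed.

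Over the whole set the differences were small. The median log2 difference of the 83 members was 0.044. By mean log2(FPKM + 1), 65 were higher and 18 lower, where 50.5% of all tested genes were higher. That median moved with single libraries. It was -0.0061 without control 2 and -0.0081 without labelled mutant 2, but 0.10 without control 1, 0.040 without control 3, 0.052 without labelled mutant 1 and 0.091 without labelled mutant 3. It was 0.046 with control 1 and labelled mutant 2 both left out. The 95% interval lay within a 1.5-fold change either way for 79 members, as for 87.3% of all tested genes. The other 4 were Cox4i2, Cox6a2, Cox8b and Ndufs5. The groups did not overlap for 1 member, Cox8a, which was higher in the labelled mutants. Of all tested genes, 9.34% were higher without overlap, 6.79% lower and 16.1% either.

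Control 1 and labelled mutant 2 were the 2 highest of the 6 libraries for 59 of 83 members (71.1%) and for 8.96% of all tested genes, a count made after the values were seen. By complex it was 25 of 36 genes in complex I, 4 of 4 in complex II, 6 of 8 in complex III, 10 of 18 in complex IV and 14 of 17 in complex V. The median departure of a member from its own mean was 0.10 in control 1 and 0.14 in labelled mutant 2 on the log2 scale, and between -0.12 and 0.0012 in the other 4 libraries. Control 2 was the lowest library for 45 members and labelled mutant 3 for 17.

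**Figure D3:**
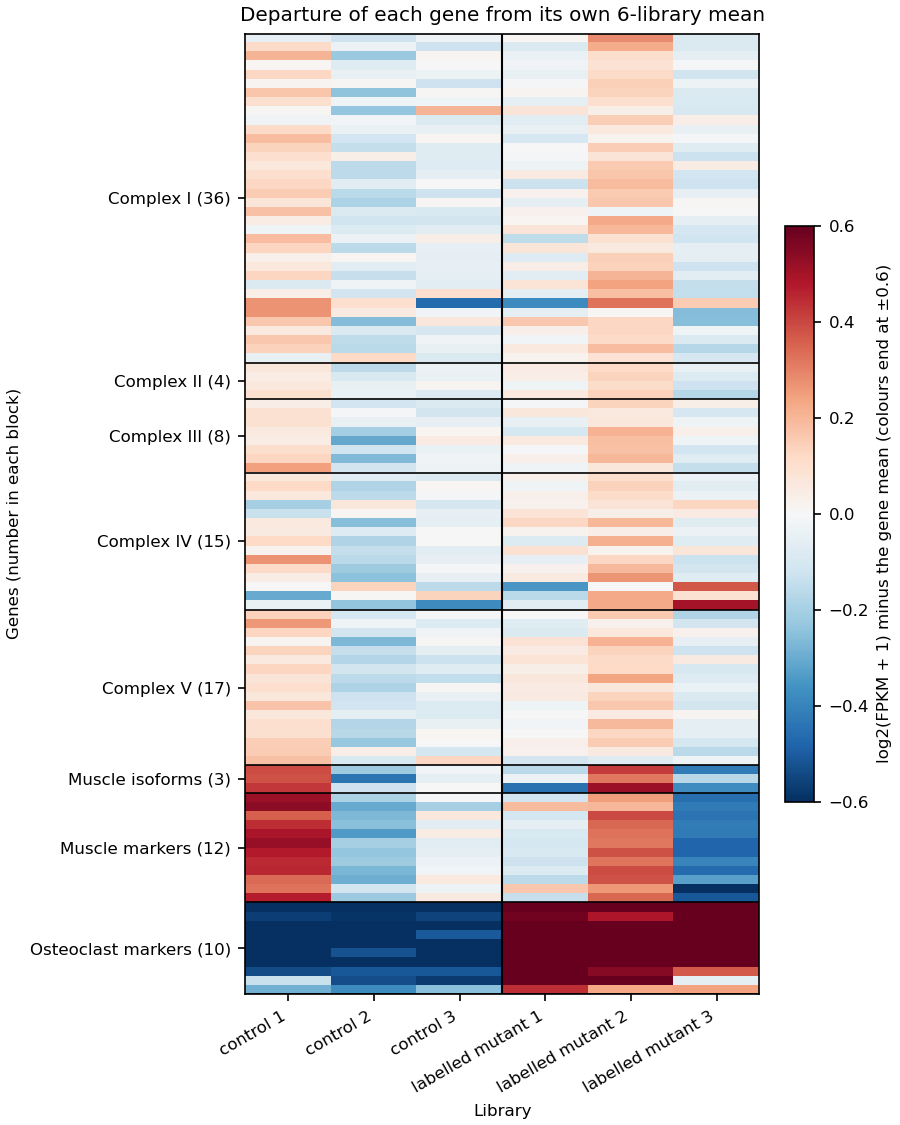
Departure of each gene from its own mean over the 6 libraries, in log2(FPKM + 1), with 1 row per gene and 1 column per library, and with members grouped by complex above the muscle isoforms, the muscle markers and the osteoclast markers. Control 1 and labelled mutant 2 are the 2 highest columns for 59 of 83 members and for all 12 muscle markers, while the osteoclast markers divide by label.

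The muscle markers had the same libraries on top, for 12 of 12 genes. Acta1, skeletal muscle actin, measured 7812, 4796 and 5415 FPKM in controls, against 5036, 6507 and 3994 in labelled mutants. Mylpf, a fast myosin light chain, measured 3788, 2338 and 2664 FPKM in controls, against 2678, 3534 and 2081 in labelled mutants. None of the 12 rose or fell in limma, and their median log2 difference was -0.12. With the muscle isoforms left out, the members summed to 15775, 13711 and 14394 FPKM in controls, against 14893, 16244 and 14323 in labelled mutants. Control 2 and labelled mutant 3 were the lowest of their groups in both sums. The part of muscle RNA in these levels was not tested. With the mean log2 value of the muscle markers as a term in the fit, 0 of 83 members passed. The smallest adjusted p was 0.185 in limma and the members' median log2 difference was 0.086. An unadjusted p under 0.05 was seen for 13 members. The share of all tested genes in that fit is not given here, so the count cannot be weighed.

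**Figure D4:**
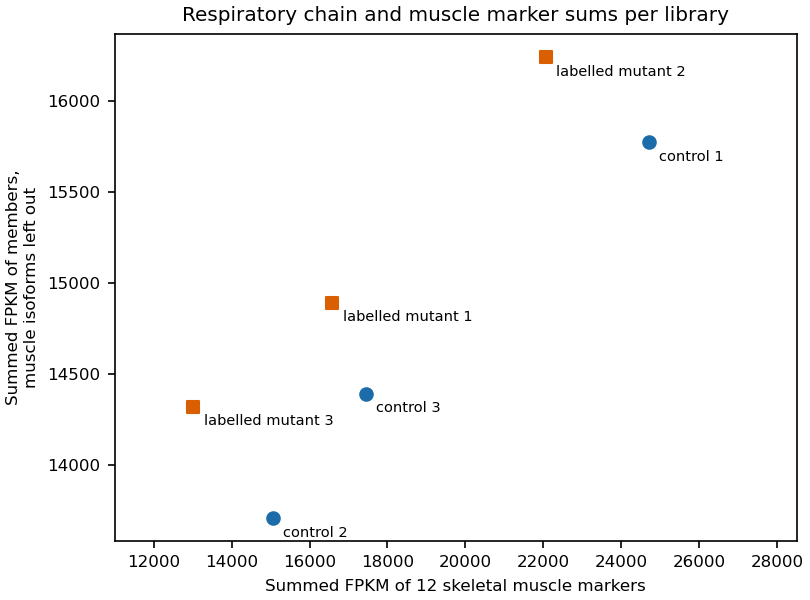
Summed FPKM of the members without the muscle isoforms against the summed FPKM of the 12 skeletal muscle markers, with 1 point per library (circles are controls, squares are labelled mutants). Control 1 and labelled mutant 2 are high on both axes, at 15775 and 16244 FPKM for the members.

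Cox6a2, Cox7a1 and Cox8b are the isoforms of cytochrome c oxidase subunits that heart and skeletal muscle use. All 3 lie on chromosome 7 of GRCm38, with Cox6a2 at 128205435 to 128206387 on the minus strand, Cox7a1 at 30184144 to 30186078 on the plus strand and Cox8b at 140898945 to 140900446 on the minus strand. Cox6a2 measured 220.3, 145 and 166 FPKM in controls, against 149.7, 225 and 125 in labelled mutants. Cox7a1 measured 70.6, 39.6 and 51.9 FPKM in controls, against 52.7, 67.5 and 48.1 in labelled mutants. Cox8b measured 159.7, 109 and 119 FPKM in controls, against 87.0, 170.4 and 91.6 in labelled mutants. In each, control 1 and labelled mutant 2 stood above the other 4 libraries. The log2 differences were -0.11 ± 0.24 (SE), 0.077 ± 0.21 (SE) and -0.20 ± 0.27 (SE), and none passed (limma, Benjamini-Hochberg adjusted p = 0.935, 0.948 and 0.875). Cox7a1 and Cox8b are also known from brown fat, whose defining gene Ucp1 reached at most 0.0932 FPKM. Of the other markers on the brown fat list, Cidea, a lipid droplet protein, ran from 0.932 to 3.86 FPKM. Dio2, a deiodinase, ran from 0.867 to 1.77 FPKM. Elovl3 reached at most 0.648 FPKM, Plin1 ran from 0.0689 to 1.30 FPKM and Adipoq from 0 to 3.86 FPKM. The summed list, mostly the fatty acid binding protein gene Fabp4, ran from 208 to 305 FPKM in controls and from 314 to 376 in labelled mutants, and its part in these levels was not tested.

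The general counterparts did not share one pattern. Cox6a1 measured 299.7, 360.4 and 321 FPKM in controls, against 351, 364 and 376 in labelled mutants. Cox8a, named after its values were seen, measured 305, 337 and 324 FPKM in controls, against 354, 343 and 346 in labelled mutants. Both were lowest in control 1, where their muscle partners were high. In labelled mutant 2, where those partners peaked, both lay above every control. For Cox8a every labelled mutant lay above every control. The log2 differences were 0.16 ± 0.081 (SE) and 0.11 ± 0.061 (SE), and neither passed (limma, Benjamini-Hochberg adjusted p = 0.586 and 0.611). Cox7a2 measured 156, 124 and 143 FPKM in controls, against 147, 165 and 133 in labelled mutants, with control 1 and labelled mutant 2 on top as for its muscle partner. The muscle form made up 24.9% to 42.4% of the pair Cox6a1 and Cox6a2, 24.2% to 31.2% of Cox7a2 and Cox7a1, and 19.7% to 34.4% of Cox8a and Cox8b. The groups overlapped in all 3 shares.

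**Figure D5:**
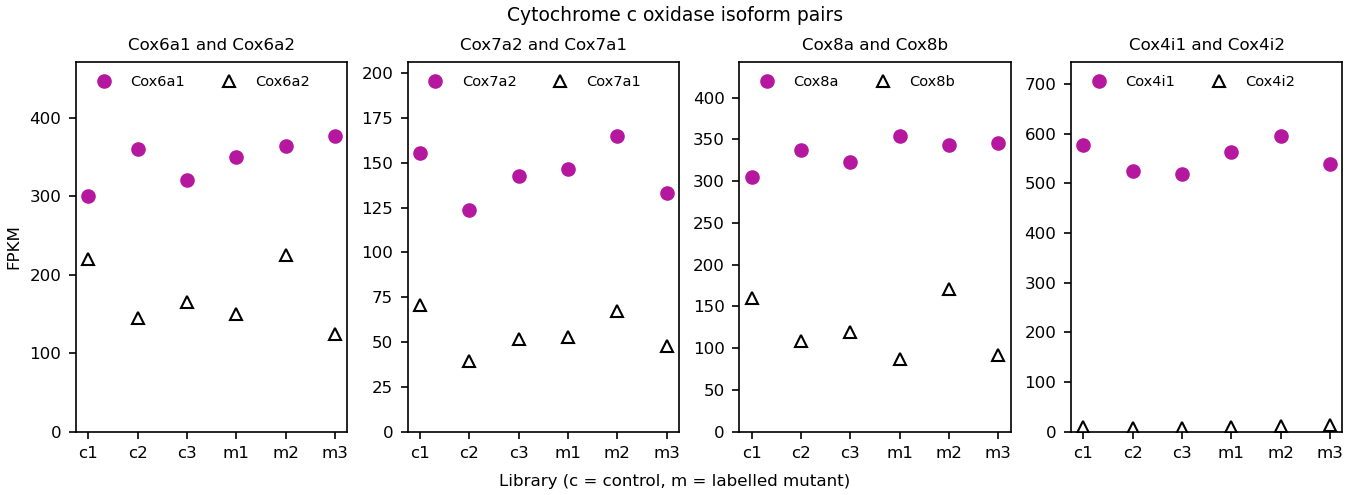
FPKM of 4 isoform pairs of cytochrome c oxidase in each library (c for controls, m for labelled mutants), with filled circles for the general form and open triangles for the muscle form or, in the last panel, Cox4i2. The muscle forms peak in c1 and m2, where Cox6a2 reaches 220.3 and 225 FPKM. Cox6a1 and Cox8a are lowest in c1 but lie above every control in m2.

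Upstream sequences are shown for Cox8a and Cox8b, a general and a muscle form of 1 subunit with different library orders. RefSeq promoter windows (GRCm38.p6), from 250 bases before to 50 after a start, were found for 68 of 85 members. The 250 bases before the start are printed 5′ to 3′ on the gene's strand. Capitals mark an E-box, CAGCTG, of the kind that muscle factors such as MyoD bind, in Cox8b. The printed bases are chr19:7217617-7217866 for Cox8a and chr7:140900447-140900696 for Cox8b, both on the minus strand.
Cox8a: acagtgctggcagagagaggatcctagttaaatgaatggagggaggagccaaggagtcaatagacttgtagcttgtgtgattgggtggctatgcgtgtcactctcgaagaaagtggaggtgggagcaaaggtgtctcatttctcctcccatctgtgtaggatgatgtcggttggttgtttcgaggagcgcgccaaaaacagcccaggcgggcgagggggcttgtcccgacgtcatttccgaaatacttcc
Cox8b: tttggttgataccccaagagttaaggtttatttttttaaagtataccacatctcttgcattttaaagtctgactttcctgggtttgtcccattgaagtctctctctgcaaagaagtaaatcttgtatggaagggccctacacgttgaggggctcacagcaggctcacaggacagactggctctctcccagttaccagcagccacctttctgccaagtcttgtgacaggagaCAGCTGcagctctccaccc
The 3 motifs given here were searched on both strands of the whole windows, with the members' results known. Motifs of the factors NRF1 and YY1 were searched too and are not reported here, since the NRF1 count depended on the spelling searched. The ETS letters CCGGAAGT, which GABP binds, were in 5 members (7.35%) against 4.31% of all 27025 symbols with a window, and Cox8a was among these, with a match on the other strand that runs across the start. The E-box was in 6 members (8.82%) against 18.3%. Besides Cox8b these were Atp5b, Ndufa8, Ndufb10, Ndufs5 and Ndufv2, none of them a muscle isoform, and the window of the muscle isoform Cox7a1 held no match. No window was used for Cox6a2. The letters TATAAA were in 7 (10.3%) against 15.7%. Median GC content was 57.2% in the members' windows and 52.8% in all. These motifs were matched as letters, which shows no binding.

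The remaining isoforms grouped with complex IV had orders of their own. Cox4i2, a form of subunit 4 known from lung and from low oxygen, measured 8.80, 7.55 and 6.75 FPKM in controls, against 8.64, 10.8 and 13.2 in labelled mutants. Labelled mutant 1 lay just below control 1, and the other 2 lay above all controls. Its log2 difference of 0.44 ± 0.15 (SE) had the smallest p of all members and did not pass (limma, Benjamini-Hochberg adjusted p = 0.353). Ndufa4l2, which low oxygen is known to induce, measured 58.3, 64.0 and 52.3 FPKM in controls, against 45.6, 58.2 and 76.0 in labelled mutants, and the latter held both extremes. Cox6b2, known from testis, averaged 28.6 ± 4.45 and 30.7 ± 4.24 FPKM (SD, n = 3 each).

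Among the other genes of complex IV, Cox7a2l, which helps join complexes into supercomplexes, measured 189.8, 169 and 178 FPKM in controls, against 199, 189 and 196 in labelled mutants. Labelled mutant 2 lay just below control 1, so the groups overlapped. The log2 difference was 0.12 ± 0.063 (SE), with limma's Benjamini-Hochberg adjusted p = 0.577. Cox4i1, Cox6b1 and Cox5b, the most abundant subunits, gave ratios of 1.05, 1.02 and 1.05. Ndufa4, named for complex I and now counted in complex IV, was described after its values were seen and gave 1.12. Summed over the complex, controls held 4185, 3662 and 3868 FPKM and labelled mutants 3980.0, 4413 and 3869.

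Other mitochondrial genes were read from lists written with earlier results known. None of 20 tested electron carrier and coenzyme Q genes, 49 assembly factors, 21 genes of the tricarboxylic acid cycle and pyruvate entry, 16 of fatty acid oxidation or 10 nucleotide carriers, uncoupling proteins and porins rose or fell in limma. Their median log2 differences were -0.019, 0.0079, -0.0036, -0.046 and -0.036. Of all tested genes, 0.607% rose or fell. Control 1 and labelled mutant 2 were the 2 highest libraries for 17 genes of the tricarboxylic acid cycle list, for 10 of fatty acid oxidation, for 9 electron carrier and coenzyme Q genes, for 6 of the nucleotide carrier list and for 3 assembly factors, beside 8.96% of all tested genes. Coq3 and Coq5, enzymes of coenzyme Q synthesis, gave ratios of 1.13 and 0.907. Pcx, pyruvate carboxylase, and Dlst, a subunit of oxoglutarate dehydrogenase, gave 0.856 and 1.06, and Acads and Eci2, enzymes of fatty acid breakdown, 1.12 and 1.05.

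Lyrm7, an assembly factor that brings the Rieske protein into complex III, measured 1.53, 1.47 and 1.53 FPKM in controls, against 1.09, 1.12 and 0.9754 in labelled mutants. The groups did not overlap, at a level close to the filter of 1 FPKM, and the log2 difference of -0.29 ± 0.10 (SE) missed the threshold (limma, Benjamini-Hochberg adjusted p = 0.353). The Rieske gene itself, Uqcrfs1, gave a ratio of 0.950. Taco1, a translational activator of a cytochrome c oxidase subunit, averaged 5.97 ± 0.153 and 6.88 ± 0.525 FPKM (SD, n = 3 each). Its difference missed the threshold too (limma, adjusted p = 0.467).

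The carriers that exchange ADP and ATP across the inner membrane also come in a muscle form and a general form. Slc25a4, the form of heart and muscle, was named after its values were seen and measured 789.8, 619 and 635 FPKM in controls, against 605, 704 and 537 in labelled mutants. Slc25a5, the form of most other cells, measured 164, 167 and 167 FPKM in controls, against 183, 191 and 192 in labelled mutants. The groups overlapped for Slc25a4 and not for Slc25a5, whose log2 difference of 0.19 ± 0.052 (SE) missed the threshold (limma, Benjamini-Hochberg adjusted p = 0.237). Ucp2, an uncoupling protein homologue, measured 99.4, 99.1 and 94.0 FPKM in controls, against 121, 125 and 114 in labelled mutants. These did not overlap either, and the log2 difference of 0.30 ± 0.060 (SE) missed the threshold (limma, Benjamini-Hochberg adjusted p = 0.110).

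Osteoclast markers divided the libraries by label. Of 10 markers, 8 rose in the labelled mutants and none fell in limma with Benjamini-Hochberg adjustment, beside 0.524% and 0.0835% of all tested genes. Without labelled mutant 1, 6 rose. Ctsk, the protease cathepsin K, measured 352, 346 and 355 FPKM in controls, against 780.3, 731 and 813 in labelled mutants. The summed markers ran from 595 to 666 FPKM in controls and from 1626 to 1769 in labelled mutants. The summed respiratory chain members ran from 14005 to 16226 FPKM in controls and from 14587 to 16707 in labelled mutants. The part of osteoclast RNA in the level of any member was not tested.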

How the data were processed

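Calvaria RNA was sequenced as stranded messenger RNA libraries, per the labels' protocols, and the 6 libraries were grouped and numbered by their titles. The values are FPKM as deposited by the authors, who used TopHat2 2.0.13, Bowtie2 2.2.3, SAMtools 0.1.19, Cufflinks 2.2.1 and mm10, per the submitters' processing notes. Options, annotation and read totals are not stated in the sources used here. Depth is therefore unknown. Low values gave a relative depth from 0.703 to 1 but no whole reads, so no count test was run. Cufflinks splits ambiguous fragments by a model, which bears on short subunits, those with pseudogenes and the 35 members that overlap another gene in GENCODE M21 (GRCm38).

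Genes averaging 1 FPKM or more were tested on log2(FPKM + 1), which understates changes of low genes, with limma 3.58.1 in R 4.3.3 (lmFit, eBayes with trend, group as the term, two-sided) and adjustment over 13180 genes at 0.05. The fit was tested on simulated data. Ratios are of group means of FPKM, labelled mutants over controls.

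The members, 15 lists and tests were chosen with earlier results of these data known. Genes named are, per complex, the 3 most abundant and the 3 with the smallest p, all of complex II and the tissue isoforms, in each pathway list the 2 with the smallest p, and any past the threshold. Marker lists are given mainly by sums and counts. Of the 13 mitochondrial DNA entries on 1 list, 0 were found under the names listed, so that list was not analysed here. Alternatives were other pseudocounts, filters, scalings and variance fits, a replicate block and leaving out each library. Leaving out control 1 and labelled mutant 2 together, a muscle marker term and a sex term were chosen after seeing the data. Sex was inferred from these same values, by whether the gene Xist exceeded the gene Ddx3y in a library. How the inferred sexes fall across the groups is not given here.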

Additional observations from a re-analysis of the deposited data

How the results depend on the processing

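In all 16 alternatives 0 members rose or fell in limma. The smallest adjusted p of a member lay between 0.185 and 0.573, and 0 to 3 members had an unadjusted p under 0.05, except 13 with the muscle marker term. The shares of all tested genes under 0.05 in these fits are not given here. The median log2 difference of each complex moved by less than the spread between replicates (SD from 0.097 to 0.116). Leaving out 1 of 3 libraries could hardly move it further than that, so this limit shows little. Without 1 library the median ran from -0.029 to 0.10 in complex I, -0.019 to 0.11 in complex II and 0.0014 to 0.12 in complex III. It ran from 0.019 to 0.11 in complex IV and -0.029 to 0.11 in complex V. The sign turned in complexes I, II and V. Over all genes, the counts that rose (69) and fell (11) became 44 and 6 when low values were not filtered, 23 and 2 with the replicate block, 23 and 17 without control 1 and labelled mutant 2, and 41 and 2 with a sex term. Without 1 library they ran from 15 to 34 and from 1 to 12. Whether replicate numbers pair the libraries is not known. Deviations of same-numbered libraries from their group means correlated at 0.016, -0.071 and 0.015. The highest value of any pair was 0.045, for control 1 and labelled mutant 2. Values this near 0, from 3 libraries per group, cannot decide it. Between 6 and 9 osteoclast markers rose, with 6 under the block. Among all members, signs turned for 7 under quantile normalization, 9 with the muscle marker term, 6 with a sex term, 5 without control 1 and labelled mutant 2, and 8 to 27 without 1 library. The values that follow are log2 differences of those genes named in the text whose sign turned, all of them short of the threshold. Under quantile normalization they were -0.013 for Atp5e, -0.013 for Ndufb9 and -0.031 for Uqcr10. With the muscle marker term they were 0.034 for Atp5b, 0.013 for Cox6a2, -0.023 for Ndufa4l2, 0.0044 for Sdhc and 0.036 for Mylpf. With a sex term they were 0.016 for Atp5b, -0.11 for Ndufa4l2 and -0.076 for Ndufs5. Without control 1 and labelled mutant 2 they were -0.11 for Cox6b2 and -0.0058 for Ndufb7. Without 1 library they ran from -0.10 to 0.072 for Atp5b, -0.053 to 0.068 for Atp5e, -0.17 to 0.0020 for Atp5k, -0.35 to 0.075 for Cox6a2, -0.050 to 0.10 for Cox6b1, -0.020 to 0.21 for Cox6b2, -0.12 to 0.29 for Cox7a1, -0.28 to 0.11 for Mylpf, -0.17 to 0.19 for Ndufa4l2, -0.071 to 0.10 for Ndufb7, -0.11 to 0.10 for Ndufb9, -0.15 to 0.27 for Ndufs5, -0.047 to 0.11 for Sdha, -0.086 to 0.032 for Sdhc, -0.033 to 0.046 for Uqcr10, -0.030 to 0.074 for Uqcr11 and -0.0025 to 0.19 for Uqcrc2. The cause was not tested. Depth is unknown, so its part in the precision of single subunits was not tested.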

Other observations

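Genes of the mitochondrial ribosome make the machine that translates the subunits encoded by mitochondrial DNA. Of 75 tested, none rose or fell (limma, Benjamini-Hochberg adjustment), beside 0.607% of all tested genes, and the median log2 difference was 0.021. Control 1 and labelled mutant 2 were the 2 highest libraries for 11 of these 75, beside 8.96% of all tested genes. Mrpl47 and Mrpl34, proteins of the large ribosomal subunit, averaged 11.1 ± 0.622 against 13.8 ± 1.94 and 31.5 ± 4.79 against 37.8 ± 0.773 FPKM in controls and labelled mutants (SD, n = 3 each). Of 20 tested regulators of mitochondrial biogenesis none passed either. Ppargc1b, a coactivator known to promote mitochondrial biogenesis in osteoclasts, measured 1.49, 1.62 and 1.45 FPKM in controls, against 2.06, 2.65 and 1.93 in labelled mutants. The groups did not overlap, as for 16.1% of all tested genes, and the log2 difference of 0.34 ± 0.12 (SE) missed the threshold (limma, Benjamini-Hochberg adjusted p = 0.329). Its relative Ppargc1a, prominent in muscle and picked out once its values were known, measured 1.68, 0.786 and 1.12 FPKM in controls, against 1.41, 1.58 and 0.850 in labelled mutants, with control 1 and labelled mutant 2 highest. Polg2, a subunit of the mitochondrial DNA polymerase, gave a ratio of 1.20.

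Markers of further tissues were summed in each library. The 10 cartilage markers ran from 852 to 1863 FPKM in controls and from 352 to 490.4 in labelled mutants. Of these 10, 2 fell in limma, beside 0.0835% of all tested genes. The 9 measured red cell markers ran from 10186 to 15189.7 FPKM in controls and from 5678 to 25417 in labelled mutants, with labelled mutant 3 lowest. The 8 neural markers ran from 79.2 to 88.1 FPKM in controls and from 40.6 to 149 in labelled mutants. Labelled mutant 2 was highest and control 1 next, just above control 3 at 85.1 FPKM. The same 2 libraries had the highest muscle marker sums, there with control 1 first. They were the 2 highest libraries for 4 of the 8 neural genes, beside 8.96% of all tested genes. Of the 8 markers of bone-forming cells, 1 rose in limma, beside 0.524% of all tested genes. Their sum ran from 21051 to 23495 FPKM in controls and from 21824 to 29793 in labelled mutants. Most of this was Col1a1 and Col1a2, with ratios of 1.05 and 1.03, so the sum hides the others. The groups did not overlap for 5 of 8, as for 16.1% of all tested genes. Ibsp, Spp1, Alpl and Runx2 were higher in the labelled mutants and Bglap was lower. The 7 brown fat markers ran from 208 to 305 FPKM in controls and from 314 to 376 in labelled mutants, and most of this was Fabp4, which other cells also express. Control 1 and labelled mutant 2 had the highest brown fat sums of their groups, but were the 2 highest libraries for 0 of 4 tested markers. The part of these tissues in the levels of the respiratory chain genes was not tested.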
